A study of Homo sapiens with 6 samples.

Results

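The enzymes described here clear drugs, steroids, bile acids and reactive aldehydes from the liver cell. They were chosen by gene symbol alone, as every row whose symbol begins with CYP, ALDH, ADH, FMO, NAT or CES and a digit, with UGT1, UGT2, UGT3 or UGT8, SULT1 to SULT6, AKR1 or AKR7, or with EPHX, MGST or GST and a class letter (A, M, O, P, T, K or Z). This gave 69 genes of 9717 in the table, each with 1 transcript row among 10191 rows. By the prefixes, 31 rows were cytochromes P450, 6 aldo-keto reductases, 7 aldehyde and alcohol dehydrogenases, 5 esterases, epoxide hydrolases or flavin monooxygenases, 4 glucuronosyltransferases, 4 sulfotransferases, 8 glutathione transferases and 4 N-acetyltransferases. The prefix also takes in rows that are no drug enzyme: the pseudogene CYP21A1P, the antisense RNAs CYP51A1-AS1 and ALDH1L1-AS2, and NAT8L, NAT9 and NAT14, which share only a name with the drug acetyltransferases. The rows for CYP3A5 and CES2 are non-coding transcripts of those genes.

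Drug metabolism is usually taught in successive steps. Functionalising enzymes come first: cytochromes P450 and flavin monooxygenases insert oxygen using electrons from NADPH, and esterases, epoxide hydrolases, dehydrogenases and aldo-keto reductases cleave, oxidise or reduce the substrate. Conjugating enzymes then attach glucuronic acid (UGT), sulfate (SULT), glutathione (GST) or an acetyl group (NAT), and transporters export the product. Hepatocytes are the main site of this work, and ligand-activated receptors such as the aryl hydrocarbon receptor control many of the genes.

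The cells were Huh7, an established line from a human hepatocellular carcinoma, grown in DMEM. One group of 3 libraries carried a scrambled shRNA and the other group of 3 an shRNA against the tyrosine kinase ABL1, both sampled 1 week after puromycin selection. The labels name 1 shRNA per group and do not state whether the libraries of a group are separate cultures; the p-values therefore reflect the scatter of these 6 libraries, which could be technical. A level below is a normalized count, the reads of a transcript multiplied by the library's scale factor as the authors set it. A log2 change is knockdown minus scrambled on log2(normalized count + 1), given ± its standard error (SE). A transcript was tested where its mean over the 6 libraries was at least 10, and was called where limma's two-sided p, adjusted by Benjamini-Hochberg over all 8600 tested transcripts, was below 0.05.

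Libraries held 6651413 to 10487862 reads, and their log2 values correlated at 0.984 to 0.988 between libraries of one group and at 0.940 to 0.951 across the groups. Of the targeted gene, the row ABL1 NM_007313 was counted at 88, 64 and 76 reads with the scrambled shRNA against 14, 9 and 9 with the ABL1 shRNA (log2 change -2.62 ± 0.26 SE, limma adjusted p = 4.11e-06). The other row, ABL1 NM_005157, had 11, 6 and 11 reads against 18, 17 and 24 (1.15 ± 0.36, limma adjusted p = 0.0180), a call lost without scrambled library 2 (adjusted p = 0.0508) or knockdown library 3 (0.0738). Summed over both rows ABL1 fell by 1.33 on the log2 scale (limma adjusted p = 0.000116). The labels do not say which transcripts the shRNA targets. Of 18 hepatocyte markers 15 had a row, and their summed level was 578290 to 648430 in scrambled and 477370 to 526030 in knockdown libraries; 1 of the 14 tested rose and 8 fell. Fibroblast and stellate markers summed to 8912 to 9908 and 13259 to 14609, biliary markers to 8570 to 9789 and 5816 to 6256, and endothelial markers to 195 to 222 and 138 to 153. Each list had calls both ways, where 24.5% of all tested transcripts were called higher and 27.4% lower. Of 6 fibroblast and stellate markers tested 4 rose and 1 fell (COL1A1, -1.03), and COL1A2 made up most of that sum. Of 6 biliary markers 1 rose and 4 fell, and of 5 endothelial markers 1 rose and 3 fell. Immune markers summed to 5714 to 6331 and 6544 to 7489, almost all of it lysozyme, and intestinal markers to 6700 to 7727 and 5885 to 6633. Of 3 immune markers tested 1 rose (lysozyme) and 2 fell, and of 4 intestinal markers 1 rose and 1 fell. No row was found for PTPRC, CD68 or CD14. The part of these shifts in the enzyme changes was not tested. All libraries come from the Huh7 line, so the lists are read as genes and not as cell types present. In bulk RNA a change in the number of cells expressing a marker and in its RNA per cell cannot be told apart.

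Promoter sequences are shown for the genes the results turn on: UGT2B11 and SULT1E1, the conjugating enzymes that rose most among those above 100 normalized counts; CYP1A1, the P450 that rose most at that level; and GSTA1 and GSTA2, close relatives that rose by unequal amounts. Each is the 250 bases before 1 start site listed by RefSeq for the gene (GRCh38.p14), all from genes on the minus strand, written 5′ to 3′ along the gene. The listed start need not be that of the transcript counted: the paired GENCODE release 29 models start at 69214731 (UGT2B11), 69860152 (SULT1E1), 52763569 (GSTA2), 52803910 (GSTA1) and 74725610 (CYP1A1), so distances from the start depend on the annotation. Capitals mark TATAAA (the letters of the TATA box) on either strand in all 5, GTTAAT (an HNF1 half-site, read ATTAAC on the other strand) in SULT1E1, GSTA2 and GSTA1, and GCGTG (the core bound by the aryl hydrocarbon receptor) in CYP1A1. For UGT2B11 the window lies inside the RefSeq gene span, which ends at 69224984. UGT2B11 lies at chr4:69214749-69214998, SULT1E1 at chr4:69860146-69860395, GSTA2 at chr6:52763476-52763725, GSTA1 at chr6:52803817-52804066 and CYP1A1 at chr15:74725529-74725778.
UGT2B11: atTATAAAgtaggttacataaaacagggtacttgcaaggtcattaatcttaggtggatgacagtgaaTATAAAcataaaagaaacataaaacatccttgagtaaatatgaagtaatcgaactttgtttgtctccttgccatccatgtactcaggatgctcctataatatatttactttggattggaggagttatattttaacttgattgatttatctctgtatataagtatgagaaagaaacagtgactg
SULT1E1: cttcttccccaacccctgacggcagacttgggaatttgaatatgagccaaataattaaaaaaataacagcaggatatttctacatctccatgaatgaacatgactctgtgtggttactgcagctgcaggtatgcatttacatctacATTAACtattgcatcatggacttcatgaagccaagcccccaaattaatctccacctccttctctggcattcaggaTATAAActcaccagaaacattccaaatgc
GSTA2: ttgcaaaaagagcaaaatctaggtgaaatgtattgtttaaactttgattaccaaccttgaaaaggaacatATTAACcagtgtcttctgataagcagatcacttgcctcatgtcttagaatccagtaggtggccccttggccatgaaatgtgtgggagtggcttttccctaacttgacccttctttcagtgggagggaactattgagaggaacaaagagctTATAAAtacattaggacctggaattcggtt
GSTA1: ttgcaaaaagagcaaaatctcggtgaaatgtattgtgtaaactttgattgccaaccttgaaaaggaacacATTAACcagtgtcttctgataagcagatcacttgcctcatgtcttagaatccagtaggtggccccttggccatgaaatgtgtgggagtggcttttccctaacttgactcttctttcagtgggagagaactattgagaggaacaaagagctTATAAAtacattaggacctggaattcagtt
CYP1A1: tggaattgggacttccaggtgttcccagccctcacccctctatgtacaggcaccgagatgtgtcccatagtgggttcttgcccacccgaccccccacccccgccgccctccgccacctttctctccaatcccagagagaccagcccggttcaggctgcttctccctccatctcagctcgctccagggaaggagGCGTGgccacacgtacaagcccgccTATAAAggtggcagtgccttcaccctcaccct

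Of the 69 members 57 were tested, and 17 rose, 12 fell and 28 were not called. Among all tested transcripts the shares were 24.5% called higher and 27.4% called lower (51.9% either way), against 29.8% and 21.1% of the members (50.9%), so the members were called about as often as any transcript. The 3 libraries of one group lay wholly above the other's for 34 members (59.6%), near the 58.9% of all tested transcripts. A log2 change of at least 1 was reached by 11 of the members that rose and 2 that fell, where 7.92% and 9.02% of all tested transcripts were called with such changes. The members' median log2 change was 0.12 (quartiles -0.38 and 0.60), beside 0.0018 for all tested transcripts (-0.44 and 0.43). The plot of log2 changes by enzyme family shows both directions within most families.

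That balance depends on rows of low count and on the scaling. Of the 17 that rose, 4 had a scrambled mean below 10 and entered the test through the knockdown libraries, and 2 of the 12 that fell had a knockdown mean below 10. Those 4 (ADH1A, CYP46A1, CYP11A1 and SULT1A1) are all among the 11 that rose by a log2 change of at least 1. The 2 (AKR1B10 and FMO5) are the 2 that fell by as much. The counts of large changes thus depend on the filter. With no filter, all 69 members gave 17 higher and 17 lower, when 21.6% and 23.8% of all 10191 rows were called, and the 5 further calls were CYP1A2, CYP2E1, CYP4F3, UGT1A1 and NAT9, all below the filter and all lower. With equal library totals, which raised the median change of all transcripts by 0.18, the counts became 22 higher and 8 lower. With quantile normalization they were 21 and 12. In both settings more of all tested transcripts were also called higher than lower, where the authors' scale factors gave more lower. How much of the members' shift is this general one was not tested. The lowest tested mean was 10.08 and the highest untested 9.93. The members are low genes: the median of the tested members' means was 54.4 normalized counts, against 191 for all tested transcripts.

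**Figure D1:**
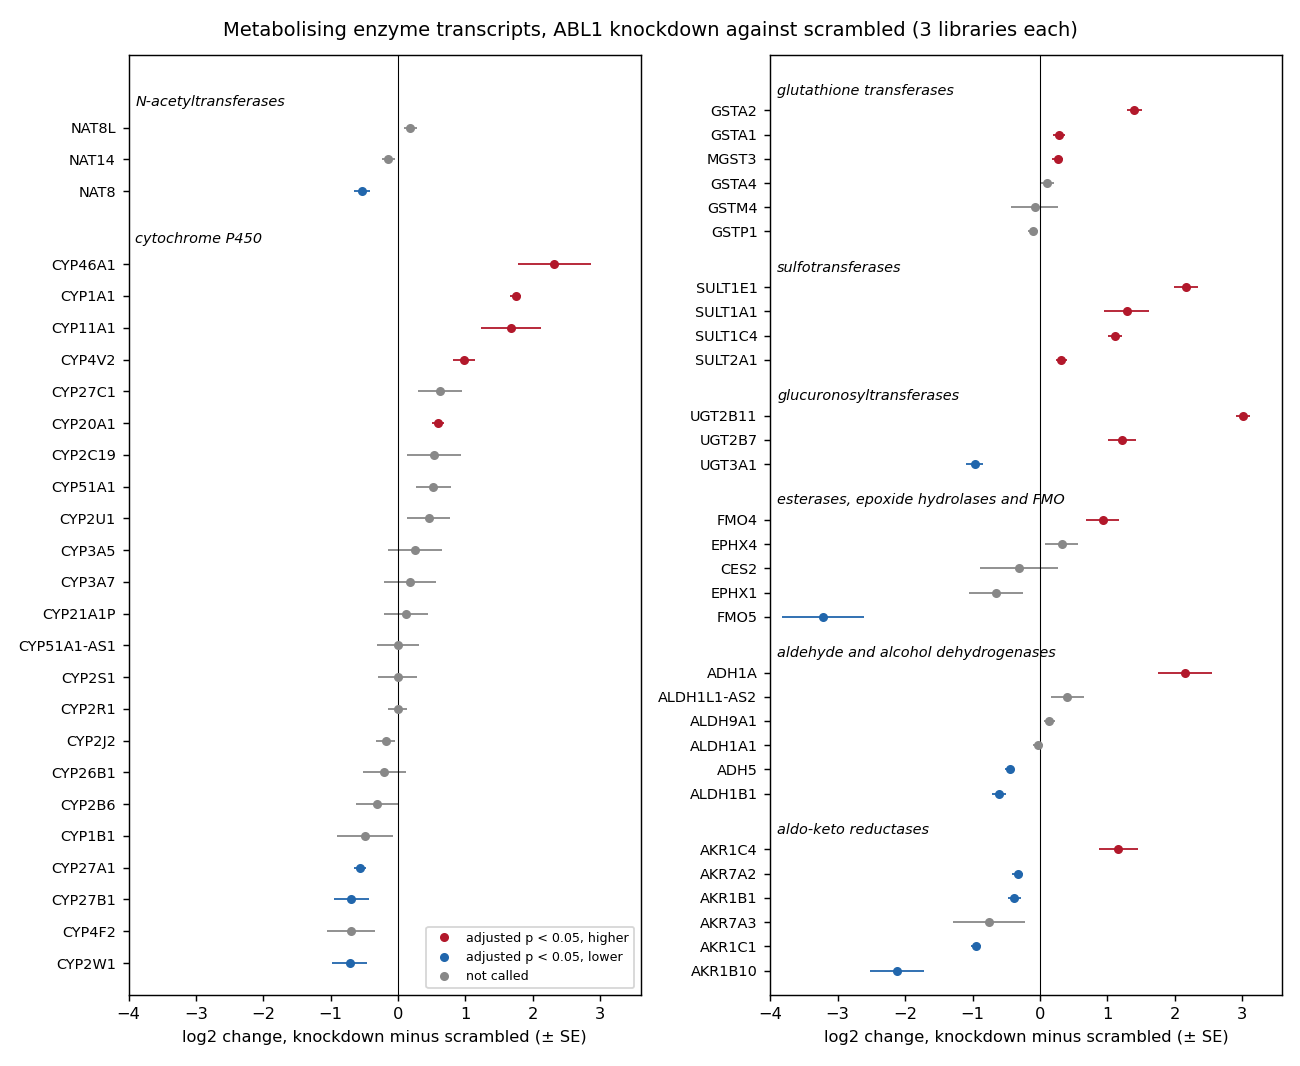
Log2 change (knockdown minus scrambled, points) with its standard error (bars) for 56 of the tested enzyme transcripts, grouped by family. Red points are called higher (17), blue points called lower (12) and grey points not called (27); UGT2B11 (3.01) and FMO5 (-3.22) lie at the extremes.

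Among the cytochromes P450, 5 of 24 tested rose, 3 fell and 16 were not called. The 33.3% called lay below the 51.9% of all tested transcripts. CYP1A1, which oxidises polycyclic aromatic compounds and is the classic target of the aryl hydrocarbon receptor, had 630.3, 649 and 565 normalized counts with the scrambled shRNA, against 2225, 1963 and 1996 with the ABL1 shRNA. All 3 knockdown libraries lay far above all 3 scrambled ones, and the mean rose 3.35-fold from 615 ± 44.2 to 2062 ± 143 (SD, n = 3 each; log2 change 1.74 ± 0.09, limma adjusted p = 1.50e-08). CYP1A2, its liver relative and neighbour on chromosome 15, was below the filter and moved the other way in its few reads, 18, 9 and 12 against 5, 1 and 0. The aryl hydrocarbon receptor transcript AHR itself rose (0.55, limma adjusted p = 0.000441), while ARNT, AHRR and TIPARP were not analysed here.

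CYP27A1, the mitochondrial sterol 27-hydroxylase of bile acid synthesis, fell from 1496, 1399 and 1403 normalized counts to 1025, 874 and 1018 (log2 change -0.56 ± 0.09, limma adjusted p = 0.000139). The 2 sets did not overlap. Per kilobase of transcript, CYP27A1 stood above CYP1A1 in the scrambled group, at 627 against 229 normalized counts, and below it in the knockdown group, at 425 against 768. In reads not corrected for length, CYP1A1 made up 13.7% to 16.5% of all P450 reads in the scrambled and 35.4% to 39.9% in the knockdown libraries, while CYP27A1 went from 34.1% to 37.7% down to 16.3% to 18.4%. The summed P450 level was 3924 to 4113 in scrambled and 5344 to 5634 in knockdown libraries.

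Other P450 rows that rose were of low or middle level. CYP4V2, an ω-hydroxylase of fatty acids, went from 82.5, 88.5 and 63.8 to 162, 158 and 141 (0.98 ± 0.17, limma adjusted p = 0.000343). CYP20A1, a P450 with no settled substrate, went from 565, 664 and 600.5 to 922, 897 and 934 (0.59 ± 0.09, limma adjusted p = 0.00011). Neither gene's groups overlapped, and the CYP20A1 row is 1 of 18 RefSeq transcripts of its gene. CYP46A1, the cholesterol 24-hydroxylase known from neurons, had 1, 5 and 5 reads against 24, 15 and 18 (2.32 ± 0.54, limma adjusted p = 0.00299), and its log2 change ran from 1.54 to 2.66 over the alternatives. CYP11A1, the mitochondrial side-chain cleavage enzyme that starts steroid synthesis, went from 6.67, 4.48 and 2.81 normalized counts to 19.6, 16.95 and 13.4 (1.68 ± 0.45, limma adjusted p = 0.00688). Both were counted at no more than 24 reads in any library, and their scrambled values lie under the filter.

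Of the vitamin D hydroxylases, CYP27B1, which makes the active hormone, fell from 45.9, 57.2 and 38.5 to 33.3, 30.5 and 22.7 (-0.69 ± 0.26, limma adjusted p = 0.0389), and the 25-hydroxylase CYP2R1 was not called (-0.01 ± 0.14). CYP2W1, an orphan P450 of fetal gut and some tumours, fell from 48.4, 39.2 and 46.0 to 21.5, 24.9 and 35.1 (-0.72 ± 0.26, limma adjusted p = 0.0346). The calls of CYP27B1 and CYP2W1 were each lost in 5 alternatives, with adjusted p up to 0.144 and 0.112, among them equal library totals.

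The drug-oxidising P450s of adult liver that had a row had low counts in these cells, and none of those tested was called. No row was present for CYP3A4, CYP2D6 or CYP2C8, so their levels are not known from these data. CYP2C19, which activates clopidogrel, had 15.0, 43.7 and 46.0 normalized counts against 36.2, 71.2 and 37.1 (0.54 ± 0.40, limma adjusted p = 0.284). Scrambled library 1 was lowest and knockdown library 2 highest, and the groups overlapped. CYP2B6 (-0.31), the fetal form CYP3A7 (0.18) and the non-coding CYP3A5 transcript (0.25) were not called. CYP2E1, which oxidises ethanol, was below the filter with 7, 9 and 10 reads against 3, 1 and 0, and CYP2A6, the nicotine oxidase, averaged 8.05 and 4.89 normalized counts. The leukotriene hydroxylase CYP4F3 was also below it, at 13, 7 and 13 reads against 3, 1 and 7. CYP8B1, the sterol 12-hydroxylase, CYP26C1 and CYP4F22 were below the filter with overlapping groups.

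The remaining P450 rows were tested and not called. CYP51A1, the lanosterol demethylase of cholesterol synthesis, varied widely within each group, from 262 to 510 in scrambled and 335 to 727 in knockdown libraries (0.52 ± 0.26, limma adjusted p = 0.109). For CYP51A1 NM_000786 limma called the change with equal library totals (adjusted p = 0.0408), without scrambled library 3 (0.0337) and without knockdown library 1 (0.00562), and it was 0.28 to 0.84 over the 6 fits that left out 1 library. Its antisense row CYP51A1-AS1 had a log2 change near 0, and reads of the pair cannot be told apart where the strand is not known. CYP27C1 (0.62), a retinoid desaturase, and CYP4F2 (-0.70), a vitamin K and fatty acid hydroxylase, had groups that did not overlap but missed the threshold, at limma adjusted p = 0.132 and 0.119. CYP1B1, CYP26B1, CYP2J2, CYP2S1, CYP2U1 and CYP21A1P lay between -0.49 and 0.46 with overlapping groups.

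**Figure D2:**
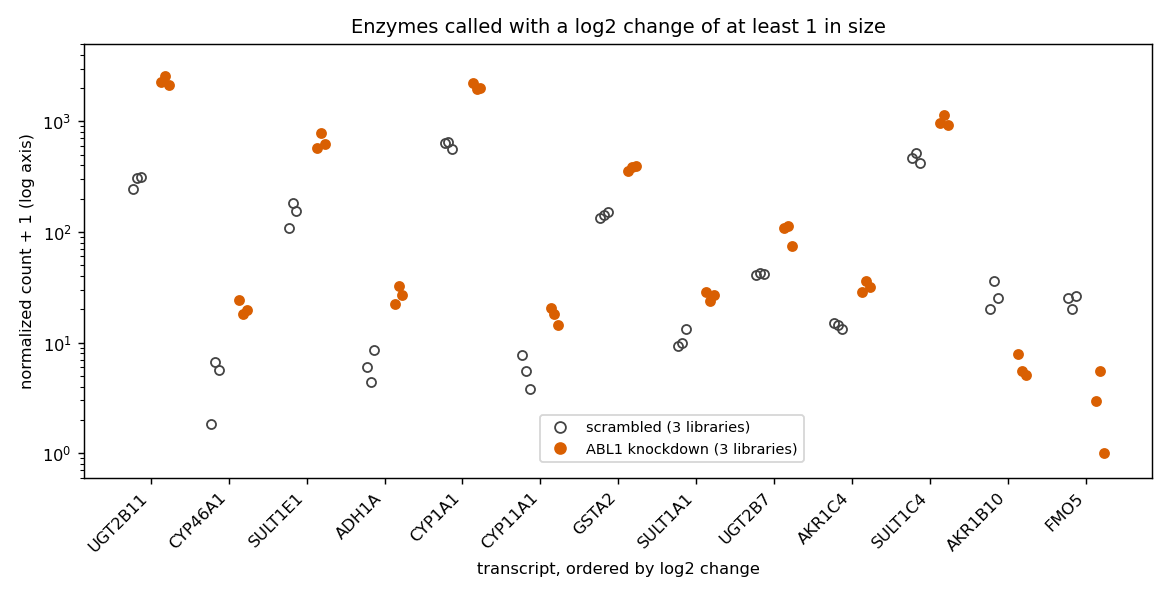
Normalized count + 1 (log axis) in each of the 6 libraries for the 13 enzyme transcripts called with a log2 change of at least 1 in size, ordered by that change. Open circles are the 3 scrambled and filled circles the 3 knockdown libraries; the groups do not overlap for any of the 13, and UGT2B11, SULT1E1, CYP1A1, GSTA2 and SULT1C4 are those above 100 normalized counts in every library.

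The aldo-keto reductases fell in 4 of 6 cases, rose in 1 and went uncalled in 1, with a median log2 change of -0.57. Among all tested transcripts 27.4% were called lower. With equal library totals 2 of the 4 falls were kept, those of AKR1C1 and AKR1B10. AKR1C1, the 20α-hydroxysteroid dehydrogenase that inactivates progesterone, is the most abundant of the family per kilobase and went from 7920.4, 8775 and 8994 normalized counts to 4582, 4622 and 4104. No library of either group came near the other group, and the mean fell from 8563 ± 567 to 4436 ± 288 (SD, n = 3 each; log2 change -0.95 ± 0.08, limma adjusted p = 7.35e-07). AKR1C4, the liver 3α-hydroxysteroid dehydrogenase encoded by the same stretch of chromosome 10, moved the opposite way, from 14.2, 13.4 and 12.2 to 27.4, 35.04 and 30.9 (1.17 ± 0.29, limma adjusted p = 0.00502). AKR1C genes are near copies of each other, so both values are uncertain where reads were shared.

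AKR1B10, a retinal and aldehyde reductase often raised in liver tumours, fell from 19.2, 34.7 and 24.4 to 6.85, 4.52 and 4.13 (-2.12 ± 0.40, limma adjusted p = 0.000714). Its neighbour AKR1B1, the aldose reductase of the polyol pathway, fell by less, from 609, 634 and 599.5 to 481, 503 and 433 (-0.38 ± 0.09, limma adjusted p = 0.00413). AKR7A2, a succinic semialdehyde and aflatoxin aldehyde reductase, fell from 965, 891 and 848 to 767, 693 and 689 (-0.33 ± 0.09, limma adjusted p = 0.00684). With equal library totals the changes of AKR1B1 and AKR7A2 were -0.21 and -0.16 and were not called (adjusted p = 0.0829 and 0.133). AKR7A3, with means of 13.0 and 7.14, was not called. The summed level of the family was 9544 to 10494 in scrambled and 5268 to 5868 in knockdown libraries, mostly AKR1C1.

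Of the aldehyde and alcohol dehydrogenases, 1 of 6 tested rose and 2 fell. ALDH1A1, which oxidises retinal to retinoic acid and is the second most abundant enzyme per kilobase, had 23372, 25754 and 25630.0 normalized counts against 23607, 25379 and 24052 (-0.03 ± 0.07, limma adjusted p = 0.736), and the groups overlapped. With quantile normalization its change was 0.36, and called (adjusted p = 0.000648). ALDH1B1, a mitochondrial acetaldehyde and retinal dehydrogenase, fell from 1006, 853 and 819 to 584, 553 and 615 (-0.61 ± 0.10, limma adjusted p = 0.00021). ADH5, the ubiquitous glutathione-dependent formaldehyde dehydrogenase, fell from 4607, 5039 and 4892 to 3554, 3712 and 3384 (-0.45 ± 0.07, limma adjusted p = 0.000187). Its neighbour on chromosome 4, the ethanol dehydrogenase ADH1A, rose from 5.002, 3.36 and 7.51 to 21.5, 31.6 and 25.8 (2.16 ± 0.40, limma adjusted p = 0.000656), with a scrambled mean under the filter. ALDH9A1 (0.14), which acts in carnitine synthesis, and ALDH1L1-AS2 (0.41) were not called, and the folate enzyme ALDH1L1 was below the filter.

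The flavin monooxygenases FMO4 and FMO5, which oxidise soft nucleophiles such as sulfides and amines, moved in opposite directions. FMO5 had 29, 17 and 27 reads with the scrambled and 2, 4 and 0 with the ABL1 shRNA, a mean of 22.9 ± 3.34 normalized counts against 2.16 ± 2.27 (SD, n = 3 each; log2 change -3.22 ± 0.61, limma adjusted p = 0.000744). At so few reads the size of this fall depends on the constant added before the logarithm. For FMO5 NM_001144829 the change was -3.66 with 0.5 and -2.002 with 5 in place of 1. That row is 1 of 3 RefSeq transcripts of FMO5, so the change of the whole gene is not known. FMO4 rose from 34.2, 35.9 and 24.4 to 63.6, 68.9 and 49.5 (0.93 ± 0.24, limma adjusted p = 0.00621). The microsomal epoxide hydrolase EPHX1 (-0.66, limma adjusted p = 0.189) had groups that did not overlap but was not called. Nor were EPHX4 (0.32) and the CES2 transcript (-0.31) called. The EPHX1 row is 1 of 14 RefSeq transcripts of its gene, so the level of the whole gene is not known.

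Glucuronosyltransferases gave the largest rise of all members. UGT2B11, a steroid- and fatty acid-conjugating enzyme of the UGT2B family, had 246, 304 and 309.6 normalized counts with the scrambled shRNA, against 2249.8, 2541 and 2144 with the ABL1 shRNA. The lowest knockdown library was several times the highest scrambled one, and the mean rose 8.07-fold, from 286 ± 35.2 to 2312 ± 206 (SD, n = 3 each; log2 change 3.01 ± 0.11, limma adjusted p = 1.59e-09). UGT2B7, the main glucuronidating enzyme for morphine and many steroids, rose from 40.0, 41.5 and 40.3 to 107, 113 and 73.2 (1.22 ± 0.21, limma adjusted p = 0.000355). The ratio of UGT2B11 to UGT2B7 was 6.15 to 7.67 in the scrambled and 21.1 to 29.3 in the knockdown libraries, groups that do not overlap. A two-sided exact permutation test gave p = 0.1, the smallest that 3 against 3 allows. Any ratio whose groups lie apart gives that p, so the test adds nothing to the ranges. UGT2B genes are close in sequence, so reads shared among them make these values uncertain. UGT3A1, which transfers N-acetylglucosamine to bile acids in place of glucuronic acid, fell from 283, 257 and 277 to 149, 123 and 144 (-0.97 ± 0.13, limma adjusted p = 3.89e-05). UGT1A1, the bilirubin-conjugating enzyme, was below the filter at 9, 10 and 7 reads against 3, 3 and 1.

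All 4 sulfotransferases rose, the only family here in which every member was tested and called in 1 direction. Their median log2 change was 1.20, and 24.5% of all tested transcripts were called higher. SULT1E1, the estrogen sulfotransferase, went from 108, 183 and 154 normalized counts to 576, 783 and 618. The groups were far apart, and the mean rose 4.44-fold from 148 ± 37.5 to 659 ± 110 (SD, n = 3 each; log2 change 2.16 ± 0.18, limma adjusted p = 7.11e-07). SULT1C4, a phenol sulfotransferase expressed mainly in fetal tissues, rose from 463, 511 and 422 to 961, 1144 and 918 (1.11 ± 0.11, limma adjusted p = 2.79e-06). SULT1A1, the main phenol sulfotransferase of adult liver, rose from 8.34, 8.97 and 12.2 to 27.4, 22.6 and 25.8 (1.29 ± 0.33, limma adjusted p = 0.00586). That row is 1 of 10 RefSeq transcripts of the gene and its scrambled mean lies under the filter. SULT2A1, which sulfates dehydroepiandrosterone and bile acids and is the most abundant of the family per kilobase, rose by less, from 1467, 1645 and 1511.5 to 1839, 2084 and 1844 (0.32 ± 0.08, limma adjusted p = 0.00555). The summed level of the 4 was 2047 to 2348 in scrambled and 3403 to 4034 in knockdown libraries.

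Of the glutathione transferases, 3 of 6 tested rose and none fell, beside 24.5% called higher and 27.4% called lower among all tested transcripts. GSTA2, an α-class enzyme that conjugates electrophiles and reduces lipid peroxides, had 133, 141 and 151 normalized counts in scrambled and 356, 383 and 391 in knockdown libraries. Its libraries were close within each group, and the mean rose 2.66-fold from 142 ± 8.85 to 377 ± 18.3 (SD, n = 3 each; log2 change 1.40 ± 0.11, limma adjusted p = 7.17e-07). GSTA1, the most abundant α-class row, rose by less, from 1316, 1616 and 1498 to 1858, 1897 and 1637 (0.28 ± 0.09, limma adjusted p = 0.0204). The ratio of GSTA2 to GSTA1 was 0.0874 to 0.101 in the scrambled and 0.192 to 0.239 in the knockdown libraries. Here too the two-sided exact permutation test gave p = 0.1, the smallest possible, and adds nothing to the ranges. The pair are near-identical, so reads assigned to one may come from the other. MGST3, a microsomal glutathione transferase and peroxidase, rose from 580.3, 616 and 585 to 687, 765 and 687 (0.26 ± 0.09, limma adjusted p = 0.0232). The calls of GSTA1 and MGST3 were each lost in 3 of the 6 fits that left out 1 library: for GSTA1 NM_145740 without scrambled library 1 or knockdown library 1 or 2 (adjusted p = 0.0880, 0.0728 and 0.0651), and for MGST3 NM_004528 without scrambled library 1 or 3 or knockdown library 2 (0.0605, 0.0680 and 0.0832).

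GSTP1, the π-class enzyme, low in normal human hepatocytes, was the most abundant enzyme per kilobase. It had 21586, 20877 and 20410.0 normalized counts against 20333, 18335 and 20101, groups that lay just apart, and was not called (-0.10 ± 0.07, limma adjusted p = 0.273). With quantile normalization its change was 0.22, and called (adjusted p = 0.00805), the opposite sign. GSTA4 (0.11), which conjugates 4-hydroxynonenal, and GSTM4 (-0.08) were not called, and GSTM2 and GSTO1 were below the filter. The GSTO1 row is 1 of 3 RefSeq transcripts of its gene, so the level of the whole gene is not known. Together GSTP1 and ALDH1A1 held 61.1% to 61.7% of the enzyme reads in the scrambled and 59.8% to 61.6% in the knockdown libraries.

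Among the rows named NAT, NAT8, which acetylates cysteine conjugates in the last step of mercapturate formation, fell from 256, 272 and 242 to 165, 185 and 179.5 (-0.54 ± 0.12, limma adjusted p = 0.00211). NAT8L (0.18), which makes N-acetylaspartate, and NAT14 (-0.14) were not called. NAT9 was below the filter at 10, 9 and 9 reads against 4, 2 and 1. Its row is 1 of 15 RefSeq transcripts of the gene.

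By level, 5 enzymes stood first per kilobase of transcript, counting each transcript's length from the matching GENCODE release 29 model. Normalized counts per kilobase in the scrambled and knockdown groups were 21808 and 20385 for GSTP1 and 11827 and 11555 for ALDH1A1. They were 1853 and 1358 for ADH5, 1449.5 and 1764 for GSTA1, and 1277 and 662 for AKR1C1. The model matched to AKR1C1 is 6705 bases long, against 1192 for AKR1C4, so the per-kilobase value and rank of AKR1C1 depend on that model. With that length UGT2B11, at 1107, stood above AKR1C1 in the knockdown group, where in the scrambled group UGT2B11 had been at 137. Not divided by length, AKR1C1 stood above UGT2B11 in both groups, at 8563 against 286 in scrambled and 4436 against 2312 in knockdown. All enzymes together summed to 72859 to 76179 normalized counts in scrambled and 71708 to 73146 in knockdown libraries, which was 0.833% to 0.881% and 0.929% to 0.973% of the normalized reads in the table, whose total was lower in the knockdown libraries.

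**Figure D3:**
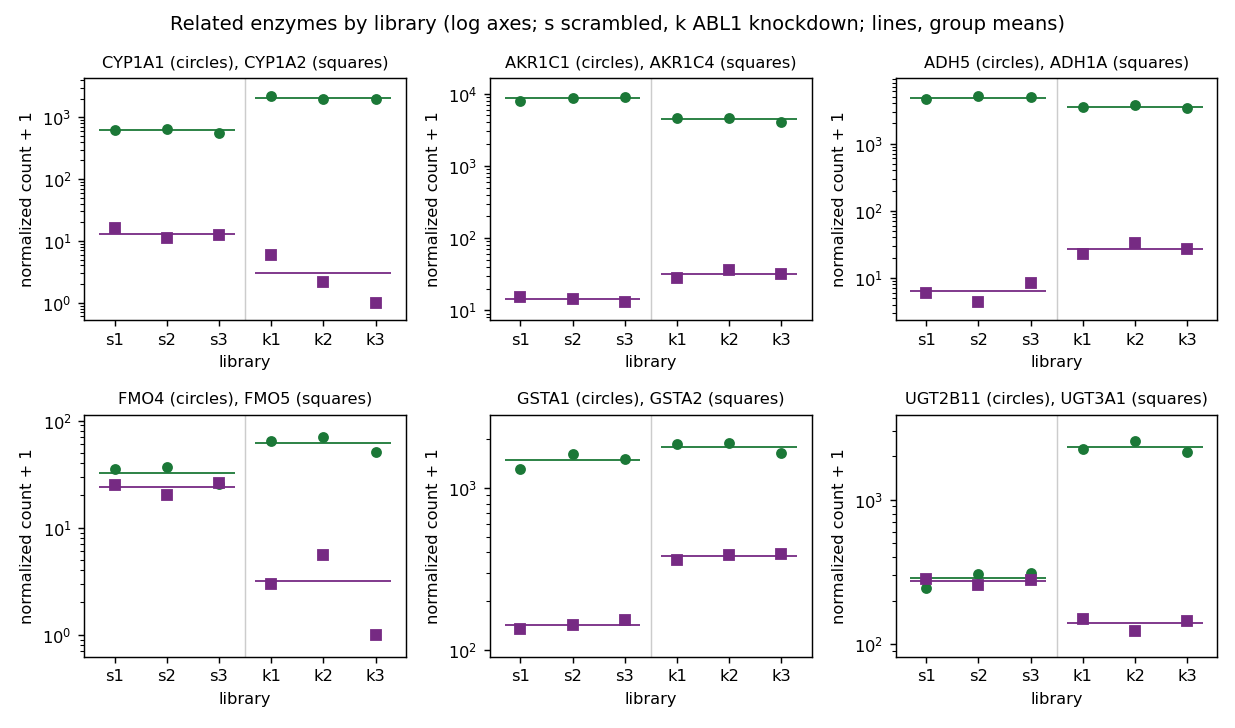
Normalized count + 1 (log axes, which differ between panels) by library for 6 pairs of related enzymes. Libraries s1 to s3 are scrambled and k1 to k3 knockdown, and horizontal lines are the group means. The 6 pairs were picked for display, so the panels give no rate among relatives. They leave out UGT2B7 (1.22), which rose like UGT2B11, and AKR1B1 (-0.38) and AKR1B10 (-2.12), which both fell. In 5 panels the relatives differ in direction (CYP1A1 and CYP1A2, AKR1C1 and AKR1C4, ADH5 and ADH1A, FMO4 and FMO5, UGT2B11 and UGT3A1; CYP1A2 was not tested), and GSTA1 and GSTA2 rose by 0.28 and 1.40.

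Many of these genes sit in family clusters, and the clusters differed in how their members moved. Members at most 1 Mb apart formed 15 runs that hold 35 of the genes. On chromosome 4 (69051375 to 69860145, GRCh38.p14) UGT2B7, UGT2B11 and SULT1E1 all rose. On chromosome 6 GSTA2 and GSTA1 rose while GSTA4 did not pass the test, and on chromosome 7 AKR1B1 and AKR1B10 both fell. The AKR1C run on chromosome 10 and the alcohol dehydrogenase run on chromosome 4 each held 1 gene that rose and 1 that fell. CYP11A1 and CYP1A1 rose in the chromosome 15 run, where the 2 other tested rows between them were not called. The CYP2A6 to CYP2S1, CYP4F, CYP3A and GSTM runs had no called member. In the CYP4F run the 1 other tested row, the non-coding RNA UCA1, rose from a mean of 205 to 1937 normalized counts (3.28, limma adjusted p = 1.69e-08).

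The RefSeq table gave a single window of 300 bases (250 before and 50 after the start) for 52 members, 14 of which rose and 7 fell. TATAAA, on either strand, was in 7 of the 14 windows of genes that rose, 1 of the 7 of genes that fell and 19 of all 52, against 11.5% of 35116 promoters. It was also in 5 of 21 windows of genes not called and 6 of 10 of genes below the filter. The latter include CYP1A2, CYP2E1 and UGT1A1, which were called lower without the filter, as were CYP4F3 and NAT9, whose windows lack it. The contrast between genes that rose and fell therefore depends on the filter. In CYP1A1, GSTA1, GSTA2 and SULT1E1 the match starts at -32, -30, -30 and -29 from the listed start site. In the UGT2B11 window, whose start site lies inside the gene span, it is at -248 and -183. Base composition also differed: the median GC content was 42% in the windows of genes that rose, 61.3% in those that fell and 63.7% in those not called. In the windows of genes below the filter, of which 6 of 10 held TATAAA, it was 58.3%, near the 58.7% of all promoters. What part GC content has in the TATAAA counts was not tested.

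Further motifs of factors known for these genes were counted in the same windows, given below for genes that rose, for genes that fell and for all members. GCGTG was in 6 of 14, 2 of 7 and 19 of 52 windows, against 36.5% of all promoters; in CYP1A1 it starts at -57. GTTAAT was in 3 of 14 (GSTA1, GSTA2 and SULT1E1), 1 of 7 (FMO5) and 7 of 52, against 6.88%. TGACNNNGC, the core of the antioxidant response element bound by NRF2, was in 2 of 14, 0 of 7 and 8 of 52, against 13.3%. The forkhead letters TGTTTAC were in 2 of 52 windows, against 3.42%, and the GC box CCGCCC in 4 of 14, 4 of 7 and 27 of 52, against 45%. The windows of GSTA1 and GSTA2 share 288 of 300 aligned bases (96%), those of UGT2B11 and UGT2B7 67.3%, and those of CYP1A1 and CYP1A2 51.7%. The sequences printed above show how alike the GSTA windows are, although GSTA2 rose by 1.40 and GSTA1 by 0.28. These are matches of letters, not sites.

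The other genes of the pathway were read from 5 lists, each gene by its most abundant tested transcript. Their counts stand beside 24.5% called higher and 27.4% called lower among all tested transcripts. Of the receptors and factors, 15 were tested, 4 rose and 5 fell (median 0.14). The orphan receptor NR2F1 (1.16), the coactivator PPARGC1A (1.01) and the corepressor NCOR1 (0.96) rose beside AHR. CEBPD (-1.57), a leucine zipper factor of the acute phase, NR0B2 (-1.35), the repressor SHP induced by bile acids, and FOXA3 (-0.79), a forkhead factor of liver, fell, with FOXA1 (-0.48) and NR2F6 (-0.53). No row was analysed here for the xenobiotic receptors NR1I2 and NR1I3. With equal library totals 7 of this list were called higher.

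Of the genes that supply electrons and cofactors, 3 of 11 tested rose and 3 fell (median 0.06). POR, the reductase that passes electrons to microsomal P450s, fell (-0.44, limma adjusted p = 0.000596), and FDX1, the ferredoxin that serves mitochondrial P450s such as CYP11A1 and CYP27A1, rose (0.41). IMPAD1 (-1.40), which clears the sulfation by-product in the Golgi, fell, SLC35D1 (0.37), which imports UDP-glucuronic acid into the endoplasmic reticulum, and CYB5R1 (0.73) rose, and PAPSS1, which makes the sulfate donor, was not called (-0.06). Of NRF2 and its targets outside the enzyme families, 5 of 14 rose and 6 fell (median -0.02), among them BLVRB (1.59) and HMOX1 (0.83) of heme breakdown, SRXN1 (-1.39), which repairs peroxiredoxins, and the ferritin chain FTL (-0.84).

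Drug and bile acid transporters were the list with calls in 1 direction: 9 of 15 tested fell and none rose, with a median of -0.53, beside 27.4% called lower among all tested transcripts. The exporters ABCC3 (-2.33, also on the NRF2 list) and ABCC1 (-1.32), which carry glutathione and glucuronide conjugates, the organic cation carrier SLC22A3 (-1.17), the bile acid exporter subunit SLC51A (-0.83) and the drug exporter SLC47A1 (-0.54) fell. ABCC2, the canalicular exporter of conjugates, was not called (0.02), and with equal library totals 1 transporter was called higher. Of the steroid enzymes outside the families, 5 of 18 rose and 3 fell (median 0.07). STAR (2.0 ± 0.30 SE), which delivers cholesterol to CYP11A1, the steroid sulfatase STS (0.85), which undoes the work of SULT1E1 and SULT2A1, and HSD17B11 (0.46) rose. HSD17B2 (-2.21), which inactivates estradiol and testosterone, and HSD11B2 (-1.31), which inactivates cortisol, fell.

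**Figure D4:**
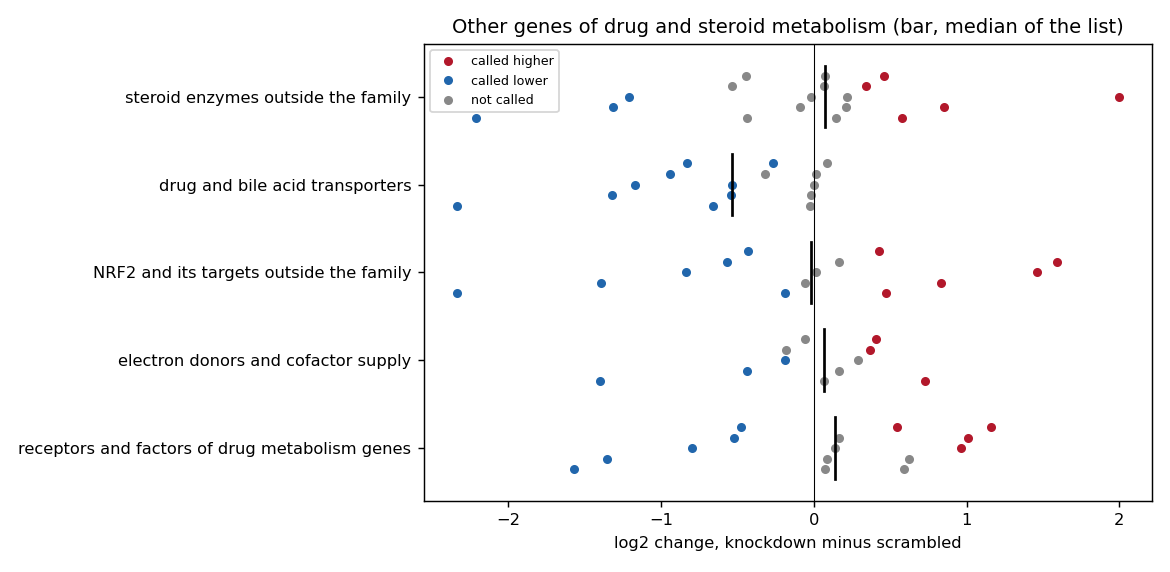
Log2 change (knockdown minus scrambled) of each tested gene in 5 lists of other genes of drug and steroid metabolism, 1 point per gene, with a black bar at the median of each list. Red points are called higher, blue lower and grey not called; the transporters have 9 blue points and no red one, and the other 4 lists have both.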

How the data were processed

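RNA was sequenced from 6 Huh7 libraries, 3 scrambled and 3 ABL1 knockdown. The submitters' processing notes name HISAT2 2.0.4, HTSeq 0.6.1 and build hg38, with no role or order. The deposited table holds 1 signal value per transcript and library. By the values, each is the square root of a library step times (reads + 0.375), so whole reads were recovered (100% of values in every library within 0.05). Normalized counts are those reads times the authors' relative step, which adjusts depth. Log2(normalized count + 1) was fitted across all transcripts with limma 3.58.1 (empirical Bayes with a mean-variance trend, R 4.3.3), requiring a mean of at least 10, with p adjusted by Benjamini-Hochberg and a threshold of 0.05. The fit was tested on simulated data. The members, lists and tests were chosen with earlier results of these data known. Named genes were ABL1, members called with a log2 change of at least 1 in size, up to 4 further called members per family and 5 genes per list by smallest p, and the 5 most abundant per kilobase; others were named after their values were seen. Of 69 members 68 matched the RefSeq gene table (GRCh38.p14). A row is 1 transcript; 26 of those genes have several RefSeq transcripts, and the treatment of reads shared between transcripts or relatives, like strandedness, was not stated in the sources used. Of the tested members 1 is counted in the totals but not reported here by its values.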

Additional observations from a re-analysis of the deposited data

How the results depend on the processing

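Of 29 called members, 23 kept their call in each of the 16 alternatives in which they were tested, 6 lost it in at least 1 and none changed sign; 7 of the 28 uncalled members gained a call in at least 1. Without the count filter the median log2 change of the members was -0.0070 and calls of lower members were 6 for cytochromes P450, 2 for glucuronosyltransferases and 2 for N-acetyltransferases. With a mean of at least 50 there were 30 members tested and 11 higher, with 3 P450s higher and 1 lower, and 0 aldo-keto reductases, dehydrogenases or esterases, hydrolases and FMO higher and 0 of the last lower, since fewer rows were tested. With equal library totals the median was 0.30, 1 P450 and 2 aldo-keto reductases were lower, 2 dehydrogenases and 1 N-acetyltransferase higher, and 7 receptors and 1 transporter higher. With quantile normalization the median was 0.21, 3 dehydrogenases and 1 N-acetyltransferase were higher, and ALDH1A1 (0.36) and GSTP1 (0.22) changed sign; the cause was not tested. Leaving out 1 library at a time gave a median of 0.035 to 0.18, 1 to 2 P450s lower against 3 with all libraries, 0 to 1 FMO lower (FMO5 was below the filter without scrambled library 3), 1 to 3 glutathione transferases higher and an ABL1 NM_005157 change of 0.99 to 1.27. With the replicate number as a block 19 members were higher, CYP51A1 NM_000786 among them (adjusted p = 0.00162), and 12 lower. Same-numbered libraries correlated at 0.047, 0.076 and 0.077 in their deviations, and differently numbered ones at -0.15 to 0.089. With 3 libraries per group these values cannot decide whether the numbers pair the libraries. The planned edgeR and DESeq2 tests were not run; voom was run on the recovered reads. Depth limits the members below the filter, where a few reads decide each value.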
